A study of Rattus norvegicus with 18 samples.

Results

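The DEAD and DEAH box RNA helicases were described in rat cortical collecting ducts, the kidney tubules in which principal cells reabsorb water and sodium and intercalated cells handle acid and base. Members were the rows of the deposited table whose gene symbol begins with Ddx or Dhx followed by a digit, with the cytosolic RNA sensor genes Ddx58 and Dhx58 left out. Ddx60, an interferon-inducible helicase whose symbol would also match, was not analysed here and is not among the members. The rule gave 50 genes of the 32883 in the table, 35 with a Ddx symbol and 15 with a Dhx symbol. LPS ducts came from male Sprague Dawley rats that had received lipopolysaccharide, a component of the bacterial outer membrane, into the peritoneal cavity 3 h earlier. Vehicle ducts came from rats of the same strain and sex given normal saline. Each group held 3 numbered samples of 3 libraries each, and the labels do not say whether a numbered sample is 1 animal. RNA was carried through a low-input protocol with cDNA amplification, and levels are in TPM, a unit of transcript abundance that corrects for transcript length and scales every library to the same total.

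DEAD and DEAH box proteins are ATP-driven enzymes that open short RNA duplexes, remodel RNA-protein complexes or clamp onto RNA. They are named for the amino acid letters of a conserved motif that binds and hydrolyses ATP. Different members act at different steps of RNA metabolism, from splicing and ribosome assembly in the nucleus to translation and decay in the cytoplasm, and several DEAH box proteins depend on partner proteins with a G-patch motif.

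The ducts carried their own markers in both groups, at lower summed levels for principal and intercalated cells in LPS. Of 10 principal cell markers 6 were called lower and 0 higher, beside 22.2% and 7.17% of all tested genes. Their sum ranged from 9498.5 to 13130.7 TPM in LPS and from 16749.8 to 18316.3 TPM in Vehicle. Aqp2, the principal cell water channel gene, stood between 3203.7 and 5262.3 TPM in LPS samples and between 5326.4 and 6318.1 TPM in Vehicle samples. The 8 intercalated cell markers summed to between 5933.3 and 8013.9 TPM in LPS and between 8128.0 and 8735.7 TPM in Vehicle. Of them 1 was called lower and 0 higher, beside 22.2% and 7.17% of all tested genes. Slc26a4, the pendrin gene of intercalated cells, stood between 1174.6 and 1710.8 TPM in LPS and between 1473.2 and 1729.6 TPM in Vehicle. Slc12a3, a distal convoluted tubule marker, and Lrp2, a proximal tubule marker, were below 1 TPM in every sample. Slc34a1, another proximal tubule marker, reached 10.7 TPM in Vehicle 3, and the 7 proximal tubule markers summed to at most 17.1 TPM. The 5 thick ascending limb markers summed to between 151.3 and 328.7 TPM in LPS and between 152.9 and 182.3 TPM in Vehicle. Among these Umod was highest in LPS 2, at 127.0 TPM, and at most 21.5 TPM in any other sample. Of 12 markers of monocytes and macrophages, 10 were tested, 5 were called higher and 1 lower, beside 7.17% and 22.2% of all tested genes. Their summed level ranged from 214.4 to 449.3 TPM in LPS and from 126.3 to 260.8 TPM in Vehicle. The 6 neutrophil markers summed to between 2.11 and 78.2 TPM in LPS and between 0.0933 and 0.39 TPM in Vehicle, with S100a8 and S100a9 highest in LPS 3, at 30.8 and 45.3 TPM, and Csf3r, Elane and Mpo below 1 TPM in every sample. Calb1, a connecting tubule marker, reached 4943.0 TPM in Vehicle 1 and at most 210.5 TPM in any other sample. Bulk levels cannot tell fewer cells of a type from less RNA per cell, and the part of other cells in the results on the helicase genes was not tested.

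Most helicase genes stood lower in LPS ducts, by about as much as the typical gene did. The summed level of the 50 members was 1211.7, 1214.9 and 1149.0 TPM in LPS 1, 2 and 3, against 1460.5, 1415.7 and 1701.5 TPM in Vehicle 1, 2 and 3, so that the groups did not overlap. Of the members, 46 averaged 1 TPM or more across the libraries, the filter used, and were tested. Their median log2 change was -0.46, beside a median of -0.38 over all 12393 genes tested, and 27 of the 46 lay below that median. Of the 46, 9 were called lower and 0 higher by limma at an adjusted p under 0.05, or 19.6% called lower, beside 22.2% of all tested genes called lower, 7.17% called higher and 29.4% called in either direction. At an unadjusted p under 0.05 there were 25 of 46, or 54.3%, beside 47.2% of all tested genes. The share of called members is thus near the background.

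The calls depended on the scaling of the libraries. With each library divided by its median ratio to the others, the median change was -0.08 for the members and -0.02 for all tested genes. Quantile normalization gave -0.18 for the members and -0.12 for all tested genes. In either scaling 0 of the 46 were called lower by limma (3 and 6 at an unadjusted p under 0.05) and 1, Ddx39a, was called higher, beside 6.62% of all tested genes called higher and 3.71% lower after median-ratio scaling. After quantile normalization 6.53% were higher and 4.67% lower. The 9 falls of members called below are falls of TPM as deposited and lost their call in both scalings.

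Direction was more uniform than the number of calls. A log2 change below 0 was found for 42 of the 46 tested members, or 91.3%, beside 76.5% of all tested genes. All 3 LPS samples lay below all 3 Vehicle samples for 35 of the 46, or 76.1%, beside 47.1% of all tested genes and 50.6% of those within the abundance range of the members. The reverse order, LPS above Vehicle, held for 1 member, Ddx39a, beside 9.82% of all tested genes. After median-ratio scaling the count was 11 of 46, or 23.9%, beside 22.8% of all tested genes, so it did not stand apart there. The reverse order then held for 3 of 46, Ddx39a, Ddx41 and Dhx29, or 6.52%, beside 22.5% of all tested genes. The number of calls also rested on the fit. Without the block for the sample number 22 members were called lower and Ddx39a higher, beside 29.2% and 7.36% of all tested genes. Without replicate 2 or without replicate 3 limma called 0 members lower (4 and 2 at an unadjusted p under 0.05). Of all 12393 genes it then called 296 and 0 lower (2272 and 1463 at an unadjusted p under 0.05).

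**Figure D1:**
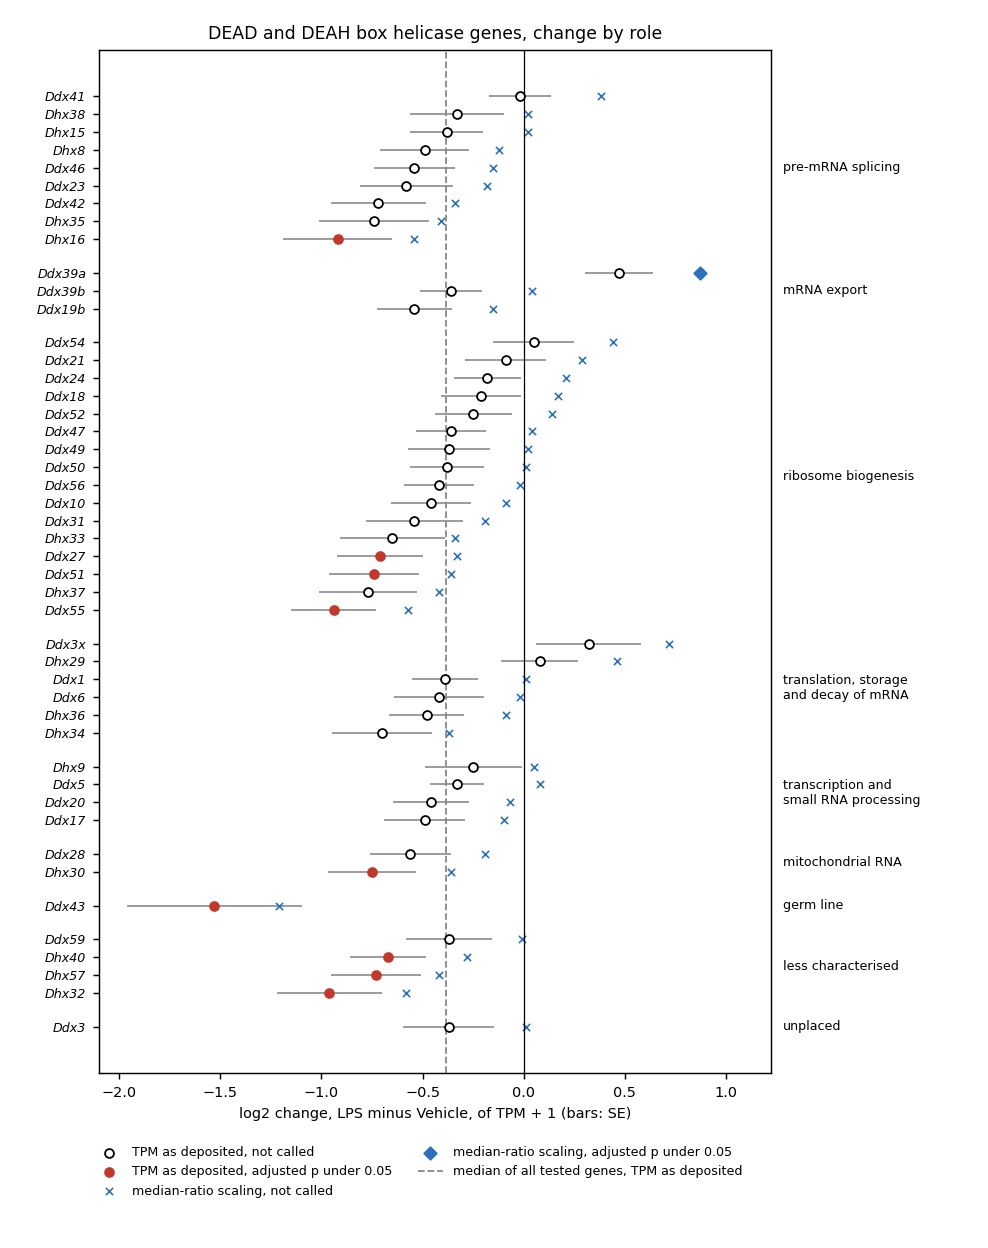
Log2 change of TPM + 1, LPS minus Vehicle, of the 46 tested helicase genes by role, with SE bars. Filled red circles are called lower in TPM as deposited, blue crosses and the diamond are values after median-ratio scaling, and the dashed line is the median of all tested genes at -0.38; Ddx39a, at 0.47 and 0.87, is the member farthest to the right in both.

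Among the mRNA export helicases, Ddx39a had higher and Ddx39b lower levels in LPS ducts in TPM as deposited, and neither was called there. They encode close relatives of the export factor UAP56, which joins spliced mRNA to the transcription-export complex, and Ddx39b is the gene of UAP56 itself. Ddx39a (ENSRNOG00000004373) had 49.8, 57.3 and 51.6 TPM in LPS 1, 2 and 3, against 35.7, 38.0 and 39.4 TPM in Vehicle 1, 2 and 3. The lowest of the 9 LPS libraries, at 46.87 TPM, lay above the highest of the 9 Vehicle libraries, at 39.85 TPM. Its log2 change was 0.47 (SE 0.167, limma adjusted p = 0.0685), which missed the threshold, and it was higher in 3 of 3 pairs. It was called in 4 of 16 alternatives, at 0.87 (SE 0.131, limma adjusted p = 0.0316) after median-ratio scaling, at 0.70 (SE 0.122, adjusted p = 0.0358) after quantile normalization, at adjusted p = 0.0301 without the block and at adjusted p = 0.000275 in the fit to all 18 libraries. The fit to all 18 libraries took libraries as observations, with 1 estimated correlation for all genes, though libraries of 1 sample are not independent. Over the 16 alternatives the adjusted p of Ddx39a ranged from 0.000275 to 0.343 and its change from 0.42 to 0.87.

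Ddx39b (ENSRNOG00000000841) had 72.0, 75.9 and 74.0 TPM in LPS, against 90.9, 94.8 and 101.0 TPM in Vehicle. Here the LPS samples were the low ones, without overlap, and the log2 change of -0.36 (SE 0.154, limma adjusted p = 0.106) was close to the median of all genes and was not called. After median-ratio scaling it was 0.04 (limma adjusted p = 0.839), and after quantile normalization -0.24 (limma adjusted p = 0.189). The ratio of Ddx39a to Ddx39b within a sample does not depend on the scaling of the library. It was 0.692, 0.756 and 0.697 in LPS 1, 2 and 3, against 0.393, 0.401 and 0.390 in Vehicle 1, 2 and 3, or 0.715 ± 0.0357 and 0.395 ± 0.00537 (SD, n = 3). On the log2 scale this ratio differed by 0.86, and a two-sided exact permutation test gave p = 0.1, the smallest that 3 against 3 samples allow (adjusted p = 0.2 over the 4 paralog pairs compared, which were chosen after their values were seen). Here and for the other paralog pairs the permutation test did not use the pairing by sample number. RSEM divides reads between similar transcripts by estimate, so the split between such paralogs is uncertain.

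The promoters of these paralogs are shown because their levels in TPM as deposited differed in direction between the same samples. That of Ddx55 is shown because it had the smallest p among the members. Each is 1 unbroken run of 300 bases, 250 before and 50 after the annotated start, 5′ to 3′ on the gene's strand, from RefSeq on the build GRCr8, which is not the build of the deposited table. Capitals mark the GC box GGGCGG on either strand.
Ddx39a, chr19:41331364-41331663, minus strand: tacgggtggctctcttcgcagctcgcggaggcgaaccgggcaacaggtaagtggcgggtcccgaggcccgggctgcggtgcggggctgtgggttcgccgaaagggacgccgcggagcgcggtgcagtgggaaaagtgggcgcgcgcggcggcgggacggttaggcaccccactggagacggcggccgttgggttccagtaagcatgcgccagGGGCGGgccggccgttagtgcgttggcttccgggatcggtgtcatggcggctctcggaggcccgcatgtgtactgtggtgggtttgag
Ddx39b, chr20:3589602-3589901, minus strand: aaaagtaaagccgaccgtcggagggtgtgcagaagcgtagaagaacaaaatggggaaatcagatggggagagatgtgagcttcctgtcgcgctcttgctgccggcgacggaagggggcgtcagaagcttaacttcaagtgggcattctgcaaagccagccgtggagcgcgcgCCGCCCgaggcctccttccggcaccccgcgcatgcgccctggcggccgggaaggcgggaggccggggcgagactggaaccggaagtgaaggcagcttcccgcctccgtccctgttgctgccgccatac
Ddx55, chr12:37711149-37711448, minus strand: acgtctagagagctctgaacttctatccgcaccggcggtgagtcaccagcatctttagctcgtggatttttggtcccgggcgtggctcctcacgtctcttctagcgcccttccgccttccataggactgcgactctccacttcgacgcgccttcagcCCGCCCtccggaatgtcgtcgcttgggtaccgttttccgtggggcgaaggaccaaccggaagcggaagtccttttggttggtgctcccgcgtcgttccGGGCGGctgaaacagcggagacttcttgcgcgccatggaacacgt

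The Ddx39a and Ddx39b windows each held 1 GC box, and the Ddx55 window held 2. Of the members, 46 had a window, matched by symbol, and these are not the same set as the 46 tested members. They include the untested Ddx3y, Ddx4, Ddx11 and Ddx25 and lack the tested Ddx3, Ddx6, Ddx24 and Ddx52. Of these 46 windows 27, or 58.7%, held a GC box, beside 34.9% of all 27457 windows and 64.2% of the 8729 windows of tested genes. The TATA box TATAAA was found in 0 of 46, beside 14.3% of all windows and 6.45% of those of tested genes, and CCAAT in 47.8%, beside 37.7% and 38.4%. The palindromic cAMP response element TGACGTCA was found in 4 windows, those of Ddx28, Ddx49, Ddx51 and Dhx36, or 8.7%, beside 1.91% of all windows and 3.17% of those of tested genes. The core of the interferon-stimulated response element was found in 1 window, that of Ddx49 (3.77% of all windows), and a kappaB consensus in those of Ddx31 and Dhx15 (4.16% of all windows). Neither was found in the Ddx39a window. Both strands were searched, and the motifs may overlap each other. A match of letters is a description of the window and says nothing of binding.

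Ddx19b, which releases mRNA from export factors at the cytoplasmic face of the nuclear pore, was the export member with the smallest p. It had 28.1, 22.0 and 21.9 TPM in LPS, against 34.2, 34.2 and 37.1 TPM in Vehicle. The groups did not overlap, and the log2 change of -0.54 (SE 0.187, limma adjusted p = 0.0656) was not called. Ddx25, known as a testis helicase, was below the filter at no more than 0.51 TPM in any sample.

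**Figure D2:**
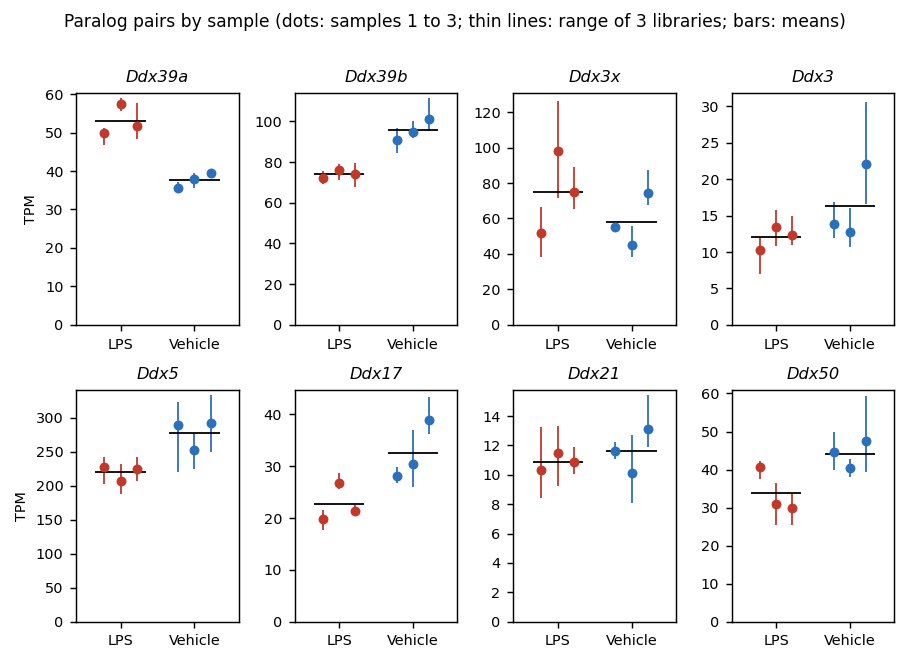
TPM of paralog pairs in LPS (left, red) and Vehicle (right, blue) ducts; dots are samples 1 to 3, thin lines the range of their 3 libraries and bars the group means. Ddx39a sits higher in all LPS samples while Ddx39b sits lower, and in the pair of Ddx3x and Ddx3 only Ddx3x has a higher mean in LPS, with overlapping groups.

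Pre-mRNA splicing was represented by 9 members, all tested. Of these 1, Dhx16, fell and 8 were not called, beside 22.2% of all tested genes called lower. The median change was -0.54, or -0.15 after median-ratio scaling and -0.20 after quantile normalization. Dhx16 is the counterpart of yeast Prp2, which drives the spliceosome into its active form. It had 16.8, 8.53 and 10.4 TPM in LPS 1, 2 and 3, against 18.4, 20.6 and 28.4 TPM in Vehicle 1, 2 and 3. LPS 1 was close to the lowest Vehicle sample, and its libraries spread from 10.28 to 26.77 TPM. The log2 change was -0.92 (SE 0.269, limma adjusted p = 0.0436). Ddx23, the counterpart of Prp28 and a component of the U5 particle, had 49.2, 50.3 and 36.0 TPM in LPS, against 64.5, 57.3 and 82.7 TPM in Vehicle, a change of -0.58 (SE 0.229, limma adjusted p = 0.0909) that was not called. LPS 3 and Vehicle 3 were the samples farthest apart.

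Ddx41, a splicing-associated helicase also described as a sensor of DNA, held nearly the same level in both groups. It had 79.9, 81.1 and 79.7 TPM in LPS, against 81.8, 78.9 and 82.9 TPM in Vehicle. The groups overlapped, and the log2 change was -0.02 (SE 0.154, limma adjusted p = 0.935), or 0.38 (SE 0.13, adjusted p = 0.111) after median-ratio scaling and 0.12 (adjusted p = 0.485) after quantile normalization. The remaining splicing members were Ddx42, Ddx46, Dhx8, Dhx15, Dhx35 and Dhx38, whose changes lay between -0.74 and -0.33. Dhx15, the counterpart of Prp43, which takes spent spliceosomes apart, averaged 41.5 ± 2.45 TPM in LPS and 54.5 ± 7.02 TPM in Vehicle (SD, n = 3), a change of -0.38 that equals the median of all genes.

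Ribosome biogenesis held the largest number of members, 16, all tested. Ddx55, Ddx51 and Ddx27 fell and 13 were not called, beside 22.2% of all tested genes called lower. The median change was -0.40, with 0.00 and -0.13 under the scalings. Ddx55, needed for assembly of the large ribosomal subunit, had 11.6, 8.03 and 8.52 TPM in LPS, against 18.1, 19.3 and 18.9 TPM in Vehicle. Its highest LPS library, at 12.83 TPM, lay below its lowest Vehicle library, at 17.02 TPM. The log2 change of -0.94 (SE 0.209, limma adjusted p = 0.0230) was called in 10 of 16 alternatives. With median-ratio scaling it was -0.57 (SE 0.142, limma adjusted p = 0.0681) and with quantile normalization -0.57 (adjusted p = 0.0701), so that it lay below the typical gene in each but missed the threshold.

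Ddx51 had 13.3, 10.3 and 9.30 TPM in LPS, against 17.0, 18.7 and 21.2 TPM in Vehicle, a change of -0.74 (SE 0.22, limma adjusted p = 0.0449). Ddx27, a partner of the Pes1 and Bop1 complex, had 15.4, 15.7 and 11.8 TPM in LPS, against 22.2, 23.2 and 27.0 TPM in Vehicle, a change of -0.71 (SE 0.211, limma adjusted p = 0.0444). In both genes every LPS sample was below every Vehicle sample, and LPS 3 was the lowest. Ddx47, an abundant nucleolar member, had 55.9, 48.4 and 43.3 TPM in LPS, against 65.4, 57.9 and 65.9 TPM in Vehicle, and its change of -0.36 (SE 0.172, limma adjusted p = 0.139) was not called. Ddx21, a nucleolar helicase that also binds the polymerase I and II machinery, averaged 10.9 ± 0.602 TPM in LPS and 11.6 ± 1.5 TPM in Vehicle (SD, n = 3), with overlapping samples and a change of -0.09, or 0.29 in each scaling. Its paralog Ddx50 averaged 33.8 ± 5.84 TPM in LPS and 44.1 ± 3.53 TPM in Vehicle, a change of -0.38, or 0.01 and -0.13 in the scalings. The Ddx21 to Ddx50 ratio averaged 0.329 ± 0.0655 in LPS and 0.263 ± 0.0132 in Vehicle (exact permutation p = 0.3, adjusted p = 0.4). The other 10 members, Ddx10, Ddx18, Ddx24, Ddx31, Ddx49, Ddx52, Ddx54, Ddx56, Dhx33 and Dhx37, had changes between -0.77 and 0.05.

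Of the helicases of translation, storage and decay of mRNA, 6 of 7 were tested and none was called by limma (0 of 6, with 3 at an unadjusted p under 0.05). Of all tested genes 29.4% were called in either direction and 47.2% had an unadjusted p under 0.05. Ddx3x, which helps ribosomes scan structured leaders and also takes part in antiviral and inflammasome signalling, had 51.8, 98.3 and 75.1 TPM in LPS, against 55.2, 45.2 and 74.5 TPM in Vehicle. LPS 2 was high and LPS 1 lay within the Vehicle range. The log2 change was 0.32 (SE 0.258, limma adjusted p = 0.341), with pair values of -0.12, 1.08 and 0.01, and it was -0.06 without replicate 2, so that 1 pair carried the positive sign. The table also lists Ddx3, annotated as DDX3Y, with 10.3, 13.4 and 12.3 TPM in LPS, against 13.9, 12.8 and 22.1 TPM in Vehicle, and Ddx3y, annotated as Y-linked, with at most 0.04 TPM in LPS and 0.19 TPM in Vehicle. The Ddx3x to Ddx3 ratio was 5.02, 7.33 and 6.08 in LPS, against 3.97, 3.53 and 3.37 in Vehicle, without overlap (exact permutation p = 0.1, adjusted p = 0.2). Reads of these near-identical genes could be divided between the rows in ways the table does not show, so their separate levels are uncertain.

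Ddx6, which represses translation and promotes decapping in P-bodies, varied more by sample number than by treatment. It had 14.3, 38.4 and 38.0 TPM in LPS 1, 2 and 3, against 19.8, 36.7 and 68.9 TPM in Vehicle 1, 2 and 3. Sample 1 was the lowest in both groups. Dhx9, a helicase of transcription and of double-stranded RNA, showed the same order for sample 1, with 1.17, 3.72 and 2.75 TPM in LPS, against 1.19, 5.0 and 3.96 TPM in Vehicle, and neither gene was called (limma adjusted p = 0.173 and 0.421). Both genes were chosen for description after their values were seen. Dhx34, a factor of nonsense-mediated decay, had the smallest p of its group, with 5.77, 2.99 and 3.03 TPM in LPS, against 6.65, 6.20 and 7.44 TPM in Vehicle and a change of -0.70 (SE 0.246, limma adjusted p = 0.0684). LPS 1 stood apart from LPS 2 and 3. Dhx29, which helps the small ribosomal subunit pass structured leaders, averaged 13.5 ± 0.306 TPM in LPS and 12.7 ± 1.39 TPM in Vehicle (SD, n = 3), a change of 0.08 that was not called. Ddx1 had -0.39 and Dhx36, which unwinds G-quadruplexes, -0.48, neither of them called.

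The most abundant member was Ddx5, a co-regulator of transcription and a part of the microRNA processing complex. It had 227.9, 207.6 and 224.2 TPM in LPS, against 289.5, 253.4 and 292.6 TPM in Vehicle. The groups did not overlap, and the change of -0.33 (SE 0.134, limma adjusted p = 0.0976) was not called and was 0.08 after median-ratio scaling and -0.36 after quantile normalization. Its paralog Ddx17 had 19.9, 26.8 and 21.4 TPM in LPS, against 28.2, 30.5 and 39.0 TPM in Vehicle, a change of -0.49 (SE 0.201, limma adjusted p = 0.0973) that was not called either. The Ddx5 to Ddx17 ratio averaged 9.89 ± 1.92 in LPS and 8.70 ± 1.43 in Vehicle, with overlapping samples (exact permutation p = 0.4, adjusted p = 0.4). Ddx20, a component of the SMN complex that assembles spliceosomal particles, averaged 14.7 ± 0.447 TPM in LPS and 20.5 ± 2.09 TPM in Vehicle (SD, n = 3), a change of -0.46 that was not called.

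**Figure D3:**
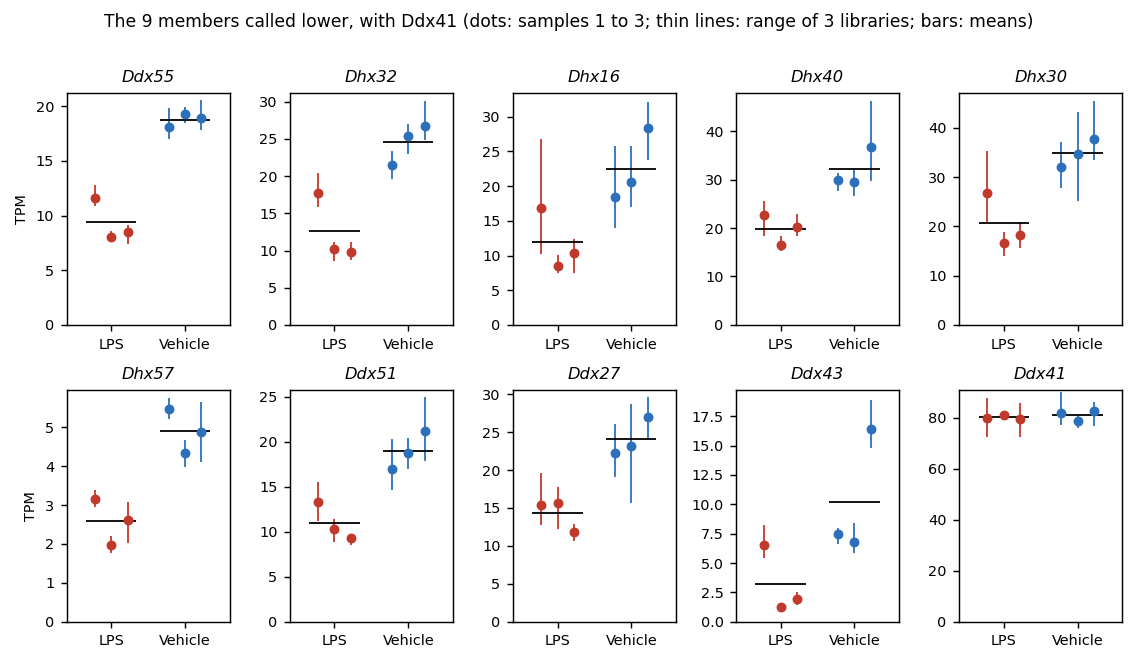
TPM of the 9 members called lower in TPM as deposited, with Ddx41 for comparison, in LPS (left, red) and Vehicle (right, blue) ducts; dots are samples 1 to 3, thin lines the range of their 3 libraries and bars the group means. LPS 1 is the highest LPS sample in 8 of the 9, and Ddx41 lies near 80 TPM in both groups.

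The mitochondrial members were Dhx30, a factor of mitochondrial ribosome assembly, and Ddx28. Dhx30 fell, with 26.8, 16.7 and 18.3 TPM in LPS, against 32.0, 34.6 and 37.8 TPM in Vehicle and a change of -0.75 (SE 0.216, limma adjusted p = 0.0416). Ddx28 averaged 9.21 ± 0.738 TPM in LPS and 14.0 ± 1.58 TPM in Vehicle (SD, n = 3), and its change of -0.56 was not called (limma adjusted p = 0.0732). Among 4 less characterised members 3 fell, beside 22.2% of all tested genes called lower. Dhx32 had 17.7, 10.2 and 9.84 TPM in LPS, against 21.5, 25.4 and 26.8 TPM in Vehicle, a change of -0.96 (SE 0.259, limma adjusted p = 0.0364). Dhx40 had 22.7, 16.4 and 20.3 TPM in LPS, against 29.9, 29.6 and 36.8 TPM in Vehicle, a change of -0.67 (SE 0.189, limma adjusted p = 0.0396). Dhx57 had 3.16, 1.98 and 2.62 TPM in LPS, against 5.48, 4.35 and 4.88 TPM in Vehicle, a change of -0.73 (SE 0.222, limma adjusted p = 0.0476). In these 3 genes no LPS sample reached the lowest Vehicle sample. Ddx59 was not called, at -0.37.

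The germ line member Ddx43, known mainly from testis and tumours, had the largest fall. It had 6.52, 1.23 and 1.91 TPM in LPS 1, 2 and 3, against 7.47, 6.83 and 16.4 TPM in Vehicle 1, 2 and 3. LPS 1 lay just under the Vehicle samples, and Vehicle 3 was high. The change was -1.53 (SE 0.433, limma adjusted p = 0.0402), with pair values of -0.19, -1.80 and -2.59, and it was called in 6 of 16 alternatives, with a range from -2.20 to -0.99. Ddx4, the vasa homologue of germ cells, was listed at no more than 0.03 TPM in any sample. Ddx11, a DNA helicase of chromosome cohesion, missed the filter, with 0.34, 0.34 and 0.31 TPM in LPS, against 0.81, 1.05 and 1.57 TPM in Vehicle. With Ddx25 and Ddx3y these were the 4 members that were not tested.

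The 15 Dhx members had a median change of -0.67, with 5 called lower, and the 31 tested Ddx members had a median of -0.39, with 4 called lower, beside 22.2% of all tested genes. Without the block 9 of 15 Dhx and 13 of 31 Ddx members were called lower, beside 29.2% of all tested genes. With median-ratio scaling the medians were -0.34 and -0.01, and with quantile normalization -0.30 and -0.14. The difference between the classes was not tested, since members are not replicates of a condition.

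**Figure D4:**
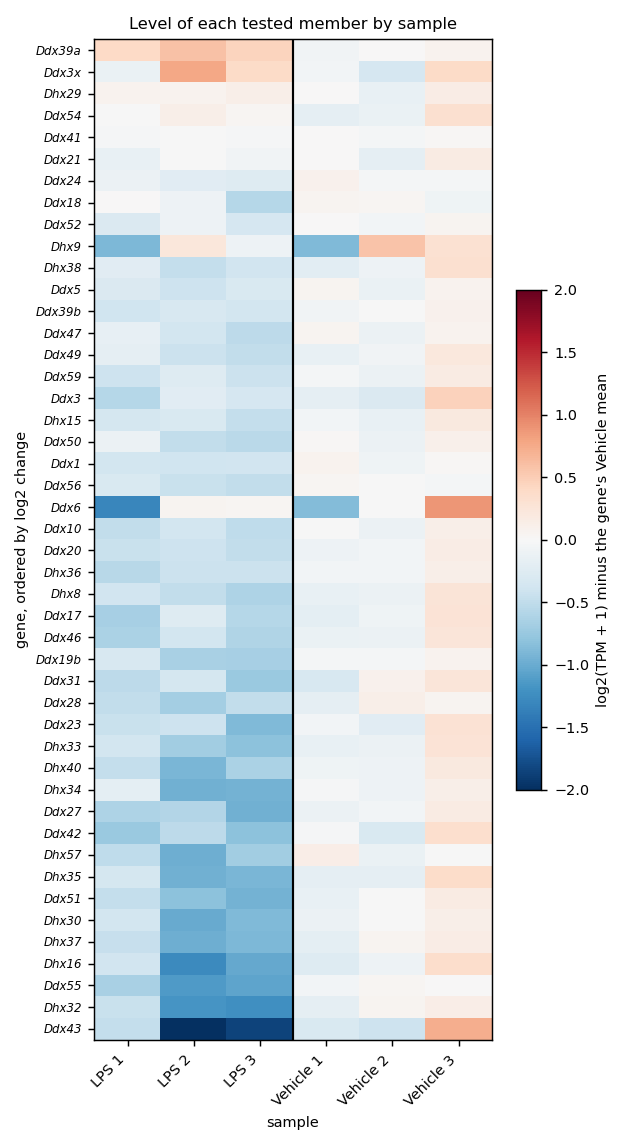
Level of each tested member in LPS samples 1 to 3 (left) and Vehicle samples 1 to 3 (right), as log2(TPM + 1) of the sample mean minus the gene's mean over Vehicle samples, with genes ordered by their log2 change. Most rows are blue in LPS, palest in LPS 1 toward the bottom of the plot, and Ddx6 and Dhx9 are low in sample 1 of both groups.

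The LPS samples did not behave alike. LPS 1 was the highest of the LPS samples in 8 of the 9 members called lower, beside 88.4% of all genes called lower, and in 11 of 15 Dhx and 13 of 31 Ddx members, beside 60.4% of all tested genes. The median change of the tested members was -0.27, -0.33 and -0.70 in pairs 1, 2 and 3, beside -0.20, -0.37 and -0.54 for all tested genes.

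Genes that work with these helicases were read from the same fit. Of 17 tested helicases outside the name rule 2 were higher and 0 lower, beside 7.17% and 22.2% of all tested genes. Helz2, a nuclear receptor co-activator, averaged 7.83 ± 2.96 TPM in LPS and 0.433 ± 0.136 TPM in Vehicle (SD, n = 3), and Mov10, an antiviral RNA helicase, 26.5 ± 13.3 TPM in LPS and 3.85 ± 0.419 TPM in Vehicle. Mov10 rose, with a log2 change of 2.35 (SE 0.341, limma adjusted p = 0.00719), and was called in both scalings. Helz2 was below 1 TPM in every Vehicle sample and passed the filter only through its LPS samples. Its log2 change of 2.56 and its place among the 2 higher genes are therefore given only as a description. Mtrex, the helicase of the nuclear exosome, had -0.69 and was not called (limma adjusted p = 0.0545). The median of these 17 was -0.31.

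Of 18 tested G-patch cofactors 5 were lower and 1 higher, beside 22.2% and 7.17% of all tested genes, and their median change was -0.41. Gpatch1, Zgpat and Sugp1 fell by 1.04, 0.88 and 0.75 on the log2 scale, with limma adjusted p = 0.0227, 0.0304 and 0.0341, and were not called in either scaling. Cmtr1, the cap methyltransferase that binds Dhx15, was the 1 that rose, with 61.7, 88.6 and 88.5 TPM in LPS, against 48.2, 42.4 and 53.7 TPM in Vehicle. Its change was 0.71 (SE 0.192, limma adjusted p = 0.0363), and it was called in both scalings, at 1.11 and 0.89. It was chosen for description after its value was seen.

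Of 18 tested rows of exon junction and export partners 4 were lower and 0 higher, beside 22.2% and 7.17% of all tested genes. Thoc5, Magohb and a row of Nup214 were among the 4, at -0.86, -0.72 and -0.75. Another Nup214 row, at -0.71, was not called (limma adjusted p = 0.0526). The median of the 18 rows was -0.37. The 4 called rows lost their calls in both scalings. Of 11 tested decapping and P-body partners 2 were lower and 1 higher, beside the same shares of all tested genes. Their median change was -0.20. Dcp2, the decapping enzyme gene, rose, with 4.96, 17.8 and 19.1 TPM in LPS, against 2.02, 2.34 and 4.79 TPM in Vehicle, by 1.76 (SE 0.309, limma adjusted p = 0.0132), and was called in both scalings. Lsm14a and Lsm1 fell by 0.74 and 0.60 on the log2 scale and were not called in either scaling.

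Of 26 tested nucleolar ribosome assembly partners 4 were lower and 0 higher, beside 22.2% and 7.17% of all tested genes. Their median was -0.23, or 0.16 and 0.03 under the scalings. Utp4, of the small subunit processome, had 38.3, 21.3 and 19.6 TPM in LPS, against 62.3, 58.6 and 61.9 TPM in Vehicle. It fell, with a log2 change of -1.24 (SE 0.224, limma adjusted p = 0.0139), and was the 1 called in both scalings, at -0.85 and -1.01. Polr1b and Nol6 had -0.87 and -0.86 and were called in TPM as deposited but in neither scaling. Of 8 SMN complex partners of Ddx20, 2 were lower, beside 22.2% of all tested genes. They were Gemin2 and Gemin4, lower by 1.12 and 0.95 on the log2 scale. Gemin2 had 15.9, 8.82 and 8.14 TPM in LPS, against 26.7, 21.5 and 23.6 TPM in Vehicle (limma adjusted p = 0.0166), and was also called in both scalings. Gemin7 had 34.8, 31.2 and 32.0 TPM in LPS, against 24.5, 25.7 and 23.1 TPM in Vehicle, a change of 0.41 that was not called (limma adjusted p = 0.112). It was called higher in the scalings, at 0.80 and 0.71, and without the block (limma adjusted p = 0.0469).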

How the data were processed

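The authors deposited TPM for 32883 Ensembl genes in 18 libraries, 1 column each, made with STAR 2.7.9a and RSEM 1.3.3 on the build Rnor_6.0 per the submitters' processing notes. Neither the annotation release nor a filter is named in the sources used here. TPM keeps no read number, so read depth is unknown, and intervals for counting error cannot be computed. A library listed 11399 to 12704 genes at 1 TPM or more. Column names beginning with L were read as LPS and with N as the normal saline vehicle.

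Levels are means over the 3 libraries of a numbered sample. Tests used log2(TPM + 1) averaged over those libraries, for genes averaging 1 TPM or more, in limma 3.58.1 (R 4.3.3) with a variance trend, two-sided, Benjamini-Hochberg adjusted over all 12393 genes, and called at 0.05. Fold changes on this scale understate changes of low genes. The sample number entered as a block, since the series describes its samples as paired. The labels do not say that samples are separate animals, so p-values reflect only how far these samples spread, which may be technical. The fit was first tested on simulated data. Members, lists and the rule for named genes (the most abundant, the called, the smallest p of each role) were chosen with earlier results of these data known.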

Additional observations from a re-analysis of the deposited data

How the results depend on the processing

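The called falls depended on the fit and the scaling more than on the pseudocount, and the cause was not tested. With no replicate block limma called 22 members lower and 1 higher, beside 29.2% and 7.36% of all tested genes. The deviations of LPS and Vehicle samples of 1 number from their group means had r = 0.0622, -0.0175 and 0.0686. The pairing is taken from the series description. With all 18 libraries and an estimated correlation 26 members were lower and 1 higher, beside 5295 lower and 1189 higher of all 12393 genes. Libraries of 1 sample are not independent, so these counts rest on more observations than there are samples. With the log2 of the mean TPM, and with no variance trend, 3 of 46 members were lower, beside 2082 and 2375 of 12393 genes. With the least similar library of each sample left out, an alternative chosen after seeing the data, 5 were lower, beside 2349 of 12314 genes. With the median of libraries limma called 0 members (19 lower at an unadjusted p under 0.05) and 0 higher and 0 lower of all genes (1019 and 4167 unadjusted). Without a filter it called 0 members (17 lower unadjusted) and 0 and 0 of all genes (1130 and 4609 unadjusted). The median change without a filter was -0.01 over all 32883 genes and -0.46 for the members. Median-ratio scaling gave 460 lower of all genes, 1 member higher and 0 lower, and medians of -0.02 for all genes and -0.08 for members; quantile normalization gave 579, 1 and 0, and -0.12 and -0.18. Leaving out each replicate in turn gave 0 to 11 members lower and 0 higher, 0 to 1004 of all genes higher and 0 to 3595 lower, and medians of -0.51 to -0.33 for members and -0.46 to -0.29 for all genes.

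The changes that turned sign were all uncalled, before and after. With median-ratio scaling they were Ddx1 at 0.01, Ddx18 at 0.17, Ddx21 at 0.29, Ddx24 at 0.21, Ddx3 at 0.01, Ddx39b at 0.04, Ddx41 at 0.38, Ddx47 at 0.04, Ddx49 at 0.02, Ddx5 at 0.08, Ddx50 at 0.01, Ddx52 at 0.14, Dhx15 at 0.02, Dhx38 at 0.02 and Dhx9 at 0.05. With quantile normalization they were Ddx18 at 0.15, Ddx21 at 0.29, Ddx24 at 0.05, Ddx41 at 0.12, Ddx52 at 0.10, Ddx59 at 0.02, Dhx38 at 0.07 and Dhx9 at 0.11. With 1 replicate left out Ddx3x ranged from -0.06 to 0.55, Ddx41 from -0.05 to 0.00 and Ddx54 from -0.06 to 0.21. Pseudocounts of 0.1 and 0.5 kept all 9 calls. The unknown depth limits the low members, such as Dhx57 and Dhx9.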
